A study of Mus musculus with 6 samples.

Results

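Pecam1, Cdh5, Esam, Emcn, Vwf, Kdr, Flt1, Tek, Tie1 and Eng are 10 genes by which the endothelial cells that line blood vessels are usually recognised. They were followed in osteoblasts (OBs) that were sorted out of ectopic bone induced by BMP-2, and each was matched by its symbol, 10 of the 23284 genes listed for every sample. The list was chosen from genes whose FPKM values in these same 6 samples were already known, so the levels and the differences between days given for the 10 genes are a description. FPKM, the unit of every level, is a read count scaled to transcript length and to the mapped reads of the sample.

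Bone was induced with 2.5 μg of BMP-2 in male Col2.3-ECFP mice of 12 to 16 weeks, and ECFP+ OBs were sorted on day 10 (3 samples) and day 14 (3 samples). In these mice a fragment of the type I collagen promoter drives the fluorescent protein ECFP, so every sample is a population defined by that promoter and no ECFP-negative population was measured. CD45+ blood cells and dead cells were gated out, and no endothelial surface protein was used in the gate. Bone of day 10 was digested with collagenase 1 time and bone of day 14 was digested 2 times, so digestion and day cannot be told apart. The 3 later samples are titled day 14, but the descriptions of replicates 2 and 3 read day 15 and day 16. The titles call the samples biological replicates but do not say whether a sample is 1 animal or a pool, so the spread given below is the spread between samples.

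The sorted populations carried OB transcripts at very high levels, and Col1a1, the main collagen of bone, was at 14200 FPKM or more in every sample. Summed over 8 OB markers, the level was 39500 to 74000 FPKM on day 10 and 26300 to 52800 FPKM on day 14. All 8 had an estimate below 0 for day 14 against day 10, as did 10441 of the 19526 genes tested. The median log2 difference of the 8 was -1.49. The day 14 samples were not alike in this. The sum of the 8 was 30600, 52800 and 26300 FPKM in day 14 replicates 1 to 3. Alpl had its highest value of all 6 samples in day 14 replicate 2 (1300 FPKM), and 7 of the 8 were lowest in day 14 replicate 3. In Sp7 every day 14 value was below every day 10 value, which held for 6.67% of all genes tested. None of the 8 passed an adjusted p of 0.05 (limma with Benjamini-Hochberg adjustment). Without adjustment, 2 were lower at a p under 0.05 (limma), as were 4.4% of all genes tested. The total over all genes was 431898 to 486940 FPKM, and the number of reads behind a sample, estimated from the steps between low FPKM values, was 4531180 to 7753890. Day 14 replicate 1 had the lowest estimated number of reads and the most genes above 0 (19698), and day 14 replicate 2 had the fewest genes above 0 (16646). Markers of haematopoietic and myeloid cells also set the day 14 samples apart: the sum of 7 such genes was 215 FPKM in replicate 1, 11.6 FPKM in replicate 2 and 539 FPKM in replicate 3, against 29.7 to 119 FPKM on day 10.

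Endothelial cells are held together by junction proteins, among them PECAM-1, VE-cadherin (Cdh5) and ESAM, and they carry receptors for growth factors that form and maintain vessels. VEGF-A signals through the tyrosine kinase receptor VEGFR2 (Kdr), and VEGFR1 (Flt1) binds VEGF-A and placental growth factor and can act as a decoy for VEGF-A. Angiopoietins bind TIE2 (Tek), which works with the related receptor TIE1, and endoglin (Eng) is a co-receptor for BMP-9 and TGF-β that mesenchymal cells carry as well. In bone, vessels and OBs lie next to each other, and OBs are a source of VEGF-A.

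Eng was the only gene of the 10 with a mean above 10 FPKM. Its mean over the 6 samples was 16.9 FPKM, which ranked it 3150 of 23284 genes. Flt1, with a mean of 3.83 FPKM, ranked 7623, and the remaining 8 genes had means of 0.219 to 1.24 FPKM and ranks between 10638 and 16717. The order of the means was Eng, Flt1, Tek, Esam, Pecam1, Kdr, Emcn, Vwf, Tie1 and Cdh5. Every pair of neighbours in this order overlapped in range over the 6 samples, although Eng was above Flt1 within each sample.

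These levels rest on few reads. With the longest coding transcript of each gene as its length, 45 of the 60 values of the 10 genes came to fewer than 30 estimated reads and 9 came to 3 or fewer. Eng rested on 183 to 383 estimated reads per sample and Flt1 on 22 to 416, whereas Cdh5 rested on 1 to 13 and Emcn on 0 to 10. A count of 3 reads corresponded to 0.0450 to 0.405 FPKM, depending on the gene and the sample. PCR copies were not removed by molecular identifiers, so these estimates describe counting only.

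Among the junction proteins, Pecam1 (chr11:106654217-106750628 of mm10, minus strand) was at 0.268, 0.657 and 0.464 FPKM in day 10 replicates 1 to 3 and at 1.35, 0.720 and 0.930 FPKM in day 14 replicates 1 to 3. All 3 samples of day 14 lay above all 3 of day 10, and triplets of values below keep this order of replicates. The mean was 0.463 ± 0.194 FPKM (SD, n = 3) on day 10 and 1.00 ± 0.323 FPKM (SD, n = 3) on day 14. The difference was 0.99 on the log2(FPKM + 0.1) scale, with a standard error of 0.50 and a 95% interval of -0.16 to 2.13, and was 0.45 with a pseudocount of 1 FPKM. In bulk samples such as these, fewer cells of a type and less RNA per cell cannot be told apart.

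Esam (chr9:37528078-37538319, plus strand), an adhesion molecule of tight junctions that platelets also carry, was at 0.124, 0.662 and 0.546 FPKM on day 10, against 2.39, 1.54 and 1.12 FPKM on day 14. The groups did not overlap, and the lowest value, in day 10 replicate 1, corresponded to 1 estimated read. The means were 0.444 ± 0.283 and 1.68 ± 0.649 FPKM (SD, n = 3 each), a difference of 1.83 on the log2 scale (SE 0.59, 95% interval 0.49 to 3.17). With a pseudocount of 1 FPKM it was 0.89.

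Cdh5 (chr8:104101625-104144511, plus strand), whose product VE-cadherin forms the adherens junctions of endothelium, had the lowest mean of the 10 genes. It was at 0.0540, 0.240 and 0.0679 FPKM on day 10, against 0.752, 0.0892 and 0.112 FPKM on day 14. Only day 14 replicate 1 stood out, with 13 estimated reads against 1 to 5 in the other samples. The log2 difference was 0.65 (SE 0.81, 95% interval -1.21 to 2.51) and became -0.04 when that sample was left out.

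Emcn (chr3:137341067-137432185, plus strand), a sialomucin of capillary and venous endothelium that marks a type of bone capillary, was listed at 0 in day 10 replicates 1 and 3 and at 0.299 FPKM in day 10 replicate 2. On day 14 it was at 0.540, 0.416 and 0.583 FPKM. Every day 14 value was above every day 10 value, on 6 to 10 estimated reads against 0 to 4. Whether a listed 0 of Emcn is an absence of reads or a failed estimate was not tested. Among the housekeeping genes looked up, only Ppia was listed at 0, in 5 samples. Gapdh was above 0 in every sample, but its lowest value was 0.125 FPKM, where the lowest value of Actb was 689 FPKM. The fitted log2 difference of 1.94 (SE 0.74, 95% interval 0.24 to 3.64) depended on the pseudocount, and was 0.47 with a pseudocount of 1 FPKM and 4.04 with 0.01 FPKM.

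Vwf (chr6:125546774-125686679, plus strand) encodes von Willebrand factor, the clotting protein stored in endothelial cells and platelets. It was at 0.190, 0.253 and 0.224 FPKM on day 10, against 0.711, 0.0978 and 0.263 FPKM on day 14. The day 14 samples held both the highest and the lowest value, so the groups overlapped. The log2 difference was 0.27 (SE 0.69, 95% interval -1.31 to 1.85) and turned to -0.26 without day 14 replicate 1.

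The receptors fall into pairs of related proteins, the VEGF receptors and the TIE receptors, and the sequence around the start site is given for both pairs and for Eng, because these 5 genes span the range of levels among the receptors. Each line holds the 300 bases around the start, read 5′ to 3′ on the strand of the gene, from RefSeq on GRCm38.p6. Of the 10 genes, 6 had an entry there (Eng, Emcn, Tek, Tie1, Kdr and Flt1). Capitals mark AGGAAG, a core bound by ETS factors, on either strand, so that a site on the opposite strand reads CTTCCT. Flt1 lies at chr5:147725962-147726261 (minus), Kdr at chr5:75978406-75978705 (minus), Tie1 at chr4:118489800-118490099 (minus), Tek at chr4:94739039-94739338 (plus) and Eng at chr2:32646345-32646644 (plus).
Flt1: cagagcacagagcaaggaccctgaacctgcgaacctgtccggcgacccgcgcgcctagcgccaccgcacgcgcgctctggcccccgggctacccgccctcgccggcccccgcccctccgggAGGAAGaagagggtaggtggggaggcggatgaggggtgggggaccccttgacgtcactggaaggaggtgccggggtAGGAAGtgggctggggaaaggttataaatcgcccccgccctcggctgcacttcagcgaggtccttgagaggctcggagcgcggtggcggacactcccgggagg
Kdr: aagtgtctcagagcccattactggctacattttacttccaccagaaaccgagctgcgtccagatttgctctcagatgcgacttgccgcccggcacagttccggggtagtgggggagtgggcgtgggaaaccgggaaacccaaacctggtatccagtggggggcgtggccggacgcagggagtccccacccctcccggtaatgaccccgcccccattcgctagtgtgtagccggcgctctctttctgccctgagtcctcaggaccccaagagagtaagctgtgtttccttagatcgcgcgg
Tie1: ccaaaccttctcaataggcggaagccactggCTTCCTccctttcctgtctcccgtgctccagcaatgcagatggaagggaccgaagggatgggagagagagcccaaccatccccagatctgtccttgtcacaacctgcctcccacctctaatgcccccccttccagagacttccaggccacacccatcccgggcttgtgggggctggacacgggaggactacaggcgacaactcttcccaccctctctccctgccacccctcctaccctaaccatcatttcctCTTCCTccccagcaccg
Tek: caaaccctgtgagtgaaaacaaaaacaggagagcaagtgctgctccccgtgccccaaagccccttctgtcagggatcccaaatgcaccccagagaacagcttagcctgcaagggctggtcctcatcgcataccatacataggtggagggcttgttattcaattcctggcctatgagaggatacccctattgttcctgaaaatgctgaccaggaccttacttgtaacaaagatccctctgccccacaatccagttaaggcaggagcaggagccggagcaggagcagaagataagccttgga
Eng: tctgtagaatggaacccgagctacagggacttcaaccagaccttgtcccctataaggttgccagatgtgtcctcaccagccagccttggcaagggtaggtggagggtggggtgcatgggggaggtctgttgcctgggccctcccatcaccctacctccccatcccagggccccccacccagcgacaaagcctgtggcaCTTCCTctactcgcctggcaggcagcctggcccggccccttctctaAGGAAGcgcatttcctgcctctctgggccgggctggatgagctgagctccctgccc

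AGGAAG was found at 2 places each in the windows of Flt1, Tie1, Eng and Emcn, and was not found in those of Kdr and Tek. It occurred in 35.4% of all 32851 promoter windows of the same length, and its presence in 4 of the 6 is given as a description. The letters AGATAA, which the erythroid and endothelial zinc-finger factors of the GATA family bind, were found in the window of Tek alone of the 6 and in 11.2% of all windows. GTAAACA (forkhead, 3.65% of all windows) and AACAATG (SOX, 3.78%) were in none of the 6. All motifs were searched on both strands, and none of the matches is shown to be a site.

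Flt1 (chr5:147561604-147726011, minus strand) had the widest range in FPKM of the 10 genes. It was at 0.672, 0.957 and 1.25 FPKM in day 10 replicates 1 to 3 and at 13.8, 1.83 and 4.50 FPKM in day 14 replicates 1 to 3. The day 14 samples all lay above those of day 10, and the day 14 samples themselves differed by more than the day 10 samples did. The means were 0.959 ± 0.287 FPKM on day 10 and 6.71 ± 6.28 FPKM on day 14 (SD, n = 3 each), and their ratio was 6.99. The log2 difference was 2.27 (SE 0.65, 95% interval 0.79 to 3.75), and it was 1.53 without day 14 replicate 1.

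Kdr (chr5:75932827-75978458, minus strand), the main signalling receptor for VEGF-A on endothelium, had overlapping values on the 2 days. It was at 0.428, 0.624 and 0.563 FPKM on day 10, against 0.959, 0.289 and 0.620 FPKM on day 14, with both extremes in day 14. The means were 0.538 ± 0.10 and 0.623 ± 0.335 FPKM (SD, n = 3 each), and the log2 difference of 0.08 had a standard error of 0.55 and a 95% interval of -1.17 to 1.32. Without day 14 replicate 1 it was -0.26, and without day 10 replicate 1 it was -0.05.

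Ratios between genes were then taken within each sample. The ratio of Flt1 to Kdr in FPKM was 1.57, 1.54 and 2.21 on day 10 and 14.4, 6.33 and 7.25 on day 14. The groups did not overlap. The ratio of Flt1 to Pecam1 was 2.5, 1.46 and 2.69 on day 10 and 10.2, 2.54 and 4.83 on day 14, and here day 14 replicate 2 lay within the day 10 range. The ratio of Kdr to Pecam1 was 1.59, 0.949 and 1.21 on day 10 and 0.708, 0.401 and 0.667 on day 14. Here every day 14 sample was below every day 10 sample. Pecam1 rested on 4 to 21 estimated reads per sample and Kdr on 10 to 25. The ratios are built from the same values of the chosen genes, and no share over all pairs of genes was computed. Nothing is read from their separation.

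Tek (chr4:94739289-94874976, plus strand), the receptor of the angiopoietins, was at 0.413, 0.613 and 1.79 FPKM on day 10, against 1.77, 1.29 and 1.56 FPKM on day 14. Its highest value was in day 10 replicate 3, close to that of day 14 replicate 1, and the other day 10 samples lay below all day 14 samples. The means were 0.938 ± 0.744 and 1.54 ± 0.242 FPKM (SD, n = 3 each), a log2 difference of 0.88 (SE 0.53, 95% interval -0.33 to 2.09). It was 0.49 without day 10 replicate 1 and 1.43 without day 10 replicate 3.

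Tie1 (chr4:118471191-118490061, minus strand), its partner with no clear ligand of its own, was lower throughout, at 0.0556, 0.198 and 0.105 FPKM on day 10 and 0.655, 0.275 and 0.154 FPKM on day 14. The groups overlapped, since day 14 replicate 3 lay below day 10 replicate 2. The log2 difference was 0.97 (SE 0.69, 95% interval -0.61 to 2.55), on 1 to 12 estimated reads per sample, and it was 0.54 without day 14 replicate 1 and 0.27 with a pseudocount of 1 FPKM. The ratio of Tek to Tie1 was 7.43, 3.10 and 17.1 on day 10 and 2.70, 4.68 and 10.1 on day 14, so that Tek exceeded Tie1 in every sample and the ratios of the days overlapped.

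Eng (chr2:32646595-32682669, plus strand) was at 11.7, 18.2 and 14.1 FPKM on day 10, against 21.9, 20.2 and 15.2 FPKM on day 14. Day 14 replicate 3 lay within the day 10 range, and the other day 14 samples lay above it. The means were 14.7 ± 3.30 and 19.1 ± 3.49 FPKM (SD, n = 3 each), a log2 difference of 0.38 (SE 0.22, 95% interval -0.12 to 0.88). It was 0.23 without day 10 replicate 1 and at most 0.55 with any other sample left out. Eng exceeded Pecam1 by 27.7 to 43.6 times on day 10 and by 16.2 to 28.0 times on day 14. Exons of Eng are overlapped on the opposite strand by Fpgs, which was at 4.47 to 7.78 FPKM, and the libraries did not keep strand, so reads in the shared stretches cannot be assigned to 1 of the genes.

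**Figure D1:**
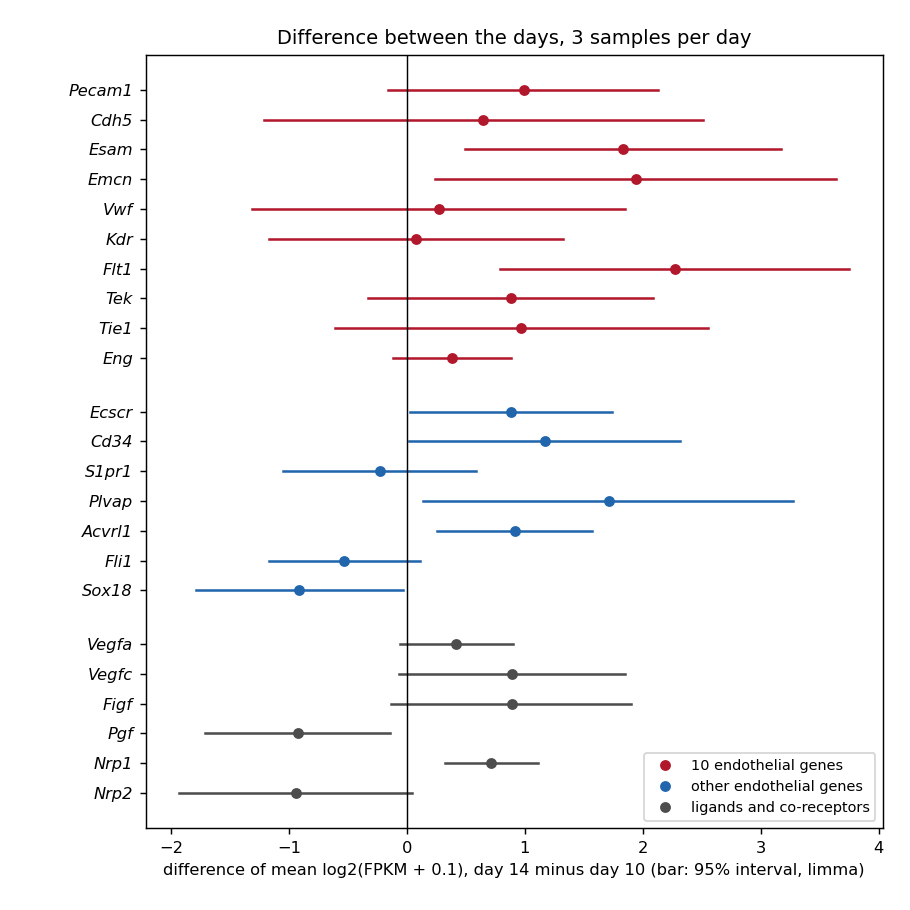
Difference between day 14 and day 10 on the log2(FPKM + 0.1) scale for the 10 endothelial genes and for the other endothelial, ligand and co-receptor genes named in the text, with points for the estimate and bars for the 95% interval from limma. All 10 estimates lie above 0, from 0.08 for Kdr to 2.27 for Flt1, and the intervals of Flt1, Emcn and Esam do not reach 0.

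In the fit over all 19526 genes with a mean above 0.1 FPKM, all 10 genes were tested and none passed an adjusted p of 0.05 (limma with Benjamini-Hochberg adjustment), where 3 genes in all (Cxcl2, Mir1892 and Snora70), or 0.0154%, passed. The smallest adjusted p among the 10 was 0.337, for Flt1 (limma with Benjamini-Hochberg adjustment), and 3 (Flt1, Emcn and Esam) were higher on day 14 at an unadjusted p under 0.05, as were 5.6% of all genes tested, with 4.4% lower. All 10 had a higher mean log2 value on day 14, as did 46.5% of all genes tested. The median log2 difference was 0.93 over the 10 and -0.04 over all genes tested, and it was -0.19 over the 8364 genes with a mean under 1 FPKM. For 4 of the 10 (Pecam1, Flt1, Emcn and Esam) every day 14 value was above every day 10 value, which held for 7.59% of all genes. For none was every day 14 value below every day 10 value, which held for 6.67%. Nothing is read from these counts, because the list was chosen with the values known. The median of 0.93 was 0.66 without day 14 replicate 1, 0.60 without day 10 replicate 1 and 0.41 with a pseudocount of 1 FPKM.

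Most of the 10 genes had their extremes in the same samples. The highest value was in day 14 replicate 1 for 8 of them, against 29.6% of all genes tested, and the exceptions were Tek (day 10 replicate 3) and Emcn (day 14 replicate 3). Genes of low level were often highest in that sample: it held the highest value for 50.1% of the genes with a mean under 1 FPKM and for 14.2% of those with a mean of at least 1 FPKM. Of the 10 genes, 5 of the 6 with a mean under 1 FPKM and 3 of the 4 with a higher mean were highest there. Day 10 replicate 1 held the lowest value for 7 of the 10, against 15.3% of all genes. Averaged over the 10 genes after each was centred on its own mean, the log2 value was -1.02, -0.10 and -0.41 in day 10 replicates 1 to 3 and 1.21, 0.03 and 0.30 in day 14 replicates 1 to 3.

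**Figure D2:**
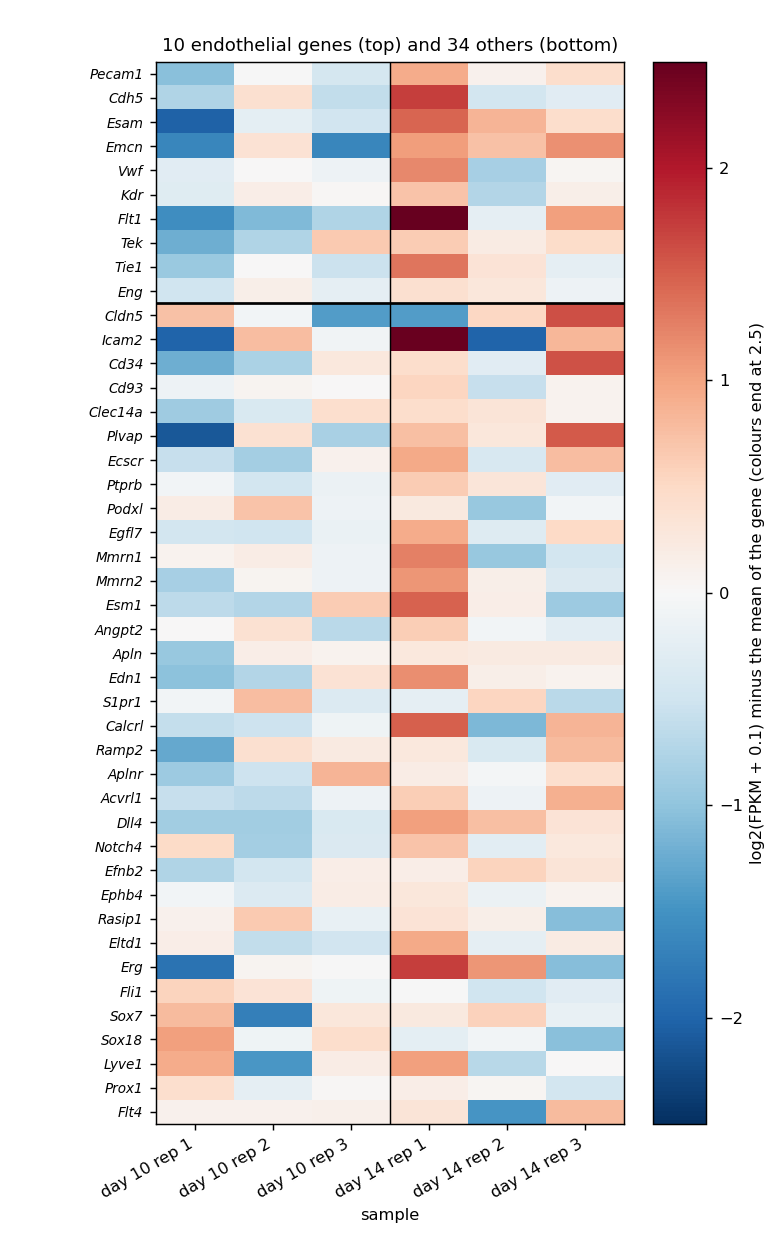
Value of each endothelial gene in each sample, as log2(FPKM + 0.1) minus the mean of that gene over the 6 samples, with colours ending at 2.5 in either direction. Day 14 replicate 1 is the highest column for 8 of the 10 genes, and day 10 replicate 1 is the lowest for 7.

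**Figure D3:**
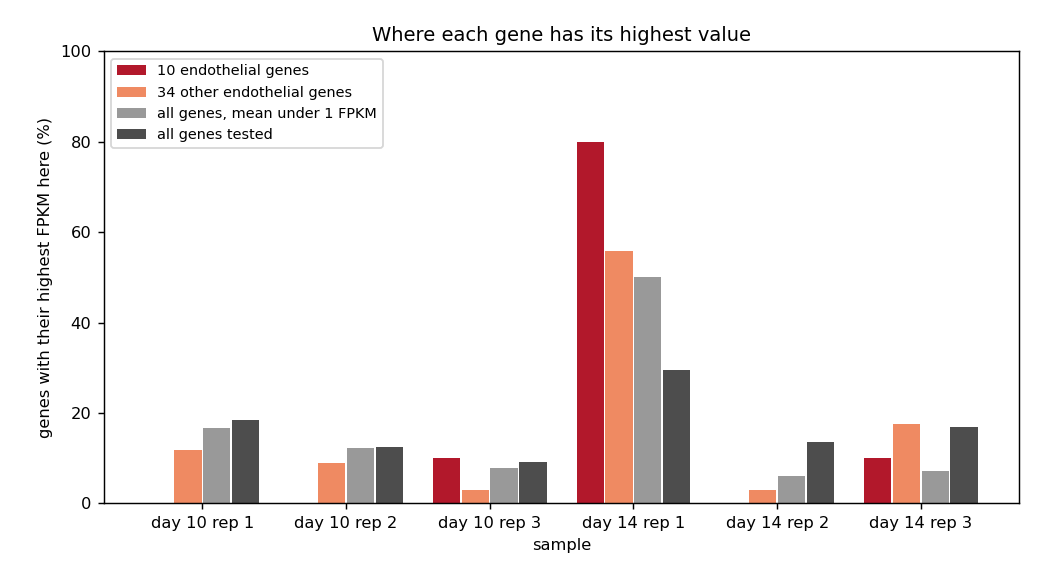
Percentage of genes that have their highest value in each sample, for the 10 endothelial genes, the other endothelial genes tested, all genes tested with a mean under 1 FPKM, and all genes tested. Day 14 replicate 1 holds the highest value for 8 of the 10 endothelial genes, for 50.1% of all genes with a mean under 1 FPKM and for 29.6% of all genes tested.

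Each gene was also compared with the average of the other 9 over the 6 samples. Pearson's r was 0.98 for Pecam1, 0.91 for Flt1 and Tie1, 0.90 for Esam, 0.81 for Cdh5 and Eng, 0.74 for Emcn, 0.67 for Vwf and 0.60 for Kdr and Tek. These are descriptions over 6 points that share library and depth. Among genes outside the 10 with a mean of at least 1 FPKM, those whose values were most like the average of the 10 were Taok1 (r = 0.992), 3110056K07Rik (0.988), Ltc4s (0.986), Ablim1 (0.980), Ptpn2 (0.978), Serpina3n (0.978), Mill2 (0.977), H2-Q8 (0.973), Mark4 (0.972) and C230081A13Rik (0.971). No gene of the wider endothelial list reached an r of 0.9, where 190 of 19516 genes (0.974%) did, although the median r was 0.58 for that list and 0.08 for all genes.

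The wider list held 39 other genes associated with endothelium, of which 34 passed the filter on low values (Robo4, Nos3, Myct1, Sox17 and Tal1 did not). None of the 34 passed an adjusted p of 0.05, and the smallest was 0.362, for Acvrl1 (limma with Benjamini-Hochberg adjustment). Without adjustment, 5 were higher on day 14 at a p under 0.05 (Cd34, Plvap, Ecscr, Acvrl1 and Efnb2) and 1 was lower (Sox18), where 5.6% of all genes were higher and 4.4% lower. The estimate was above 0 for 26 and below 0 for 8, where 46.5% of all genes tested were above 0. The median log2 difference was 0.47 against -0.04 over all genes. Only Apln and Dll4, named here after their values were seen, had all day 14 values above all day 10 values. They made up 5.88% of the 34, against 7.59% of all genes. Dll4 rested on 0 to 4 estimated reads per sample. The lowest day 14 value of Apln was 5.29 FPKM, against 5.13 FPKM in day 10 replicate 2. As with the 10 genes, low levels prevailed: 24 of the 39 had a mean under 1 FPKM. Of the 34, 19 were highest in day 14 replicate 1, against 29.6% of all genes. Of the 19 tested with a mean under 1 FPKM, 13 were highest there, against 50.1% of all genes under 1 FPKM. Of the 15 with a mean of at least 1 FPKM, 6 were highest there, against 14.2% of all genes at that level.

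By role, the estimate was above 0 for 8 of 9 junction or surface genes and 6 of 7 genes for secreted or matrix proteins. It was above 0 for 9 of 11 receptors and signalling genes, 2 of 4 transcription factors and 1 of 3 lymphatic genes. Over all genes tested the estimate was above 0 for 46.5%. Cd34, a sialomucin of endothelium that progenitor and fibroblast-like cells carry too, was at 13.9, 18.8 and 39.2 FPKM on day 10, against 44.4, 26.7 and 98.4 FPKM on day 14, with a log2 difference of 1.17 (SE 0.50, adjusted p = 0.495 in limma). Ecscr, a surface protein of endothelial cells, was at 26, 21.5 and 41.6 FPKM on day 10, against 74.8, 29.5 and 66.6 FPKM on day 14. Both genes overlapped between the days. Ecscr had a log2 difference of 0.88 (SE 0.37), and 5 of its exons are overlapped on the opposite strand by 1700066B19Rik, which was at 0.381 FPKM or below.

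Acvrl1 encodes ALK1, the type I receptor that works with endoglin. It was at 6.39, 6.06 and 8.82 FPKM on day 10, against 14.8, 8.78 and 18.0 FPKM on day 14, and the groups overlapped only in day 10 replicate 3 and day 14 replicate 2, whose values were nearly equal. The log2 difference was 0.92 (SE 0.29, adjusted p = 0.362 in limma). Plvap, the diaphragm protein of fenestrated capillaries, was at 0.113, 1.11 and 0.426 FPKM on day 10, against 1.45, 1.02 and 2.58 FPKM on day 14, a log2 difference of 1.71 (SE 0.68, adjusted p = 0.460 in limma).

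Of the 4 transcription factors tested, 2 had an estimate below 0. Sox18, which acts in vessel and lymphatic development, was at 5.78, 2.57 and 3.82 FPKM on day 10, against 2.32, 2.63 and 1.30 FPKM on day 14, a log2 difference of -0.91 (SE 0.39, adjusted p = 0.484 in limma). Fli1, an ETS factor of endothelium and blood cells, was at 4.75, 4.10 and 2.94 FPKM on day 10, against 3.19, 2.22 and 2.60 FPKM on day 14, a log2 difference of -0.53 (SE 0.28). S1pr1, the receptor for sphingosine-1-phosphate, was at 26.5, 47.4 and 21.8 FPKM on day 10, against 23.9, 40.3 and 17.5 FPKM on day 14, a log2 difference of -0.23. Some other genes widely used to recognise endothelium were low, while 15 of the 39 genes of the wider list averaged at least 1 FPKM. Erg averaged 0.393 FPKM, Cldn5 0.245 FPKM, Sox17 0.0875 FPKM and Robo4 0.0505 FPKM, all named after their values were seen.

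The ligands and co-receptors of these receptors had a median level of 9.36 FPKM, with means from 0.126 to 63.6 FPKM. Of 13 such genes none passed an adjusted p of 0.05, and the smallest was 0.305, for Nrp1 (limma with Benjamini-Hochberg adjustment). Without adjustment, 3 were higher (Acvrl1, Angpt1 and Nrp1) and 1 was lower (Pgf) on day 14 at a p under 0.05 (limma), against the same 5.6% and 4.4% of all genes. Acvrl1, itself a type I receptor, Angpt2 and Ptprb are in this list and in the wider endothelial list. Acvrl1 is thus counted in both. Vegfa, the ligand of both VEGF receptors, was at 42.3, 55.7 and 65.7 FPKM on day 10, against 61.8, 88.1 and 68.3 FPKM on day 14, a log2 difference of 0.42 (SE 0.21, adjusted p = 0.558 in limma). Its values overlapped between the days and exceeded those of Kdr and Flt1 in all 6 samples. Pgf, the placental growth factor that binds Flt1 but not Kdr, was at 13.6, 24.7 and 32.8 FPKM on day 10, against 8.51, 11.6 and 16.1 FPKM on day 14, a log2 difference of -0.92 (SE 0.34, adjusted p = 0.431 in limma). Vegfc, a ligand of the lymphatic receptor Flt4, was at 5.37, 3.91 and 8.28 FPKM on day 10, against 14.2, 5.44 and 14.6 FPKM on day 14, and Figf, which encodes VEGF-D, was at 3.30, 5.77 and 11.7 FPKM and at 11.4, 7.88 and 16.1 FPKM. Both had a log2 difference of 0.89, with standard errors of 0.42 and 0.44, and both overlapped between the days.

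The neuropilins, co-receptors for VEGF family members and semaphorins, differed from each other in direction. Nrp1, named after its values were seen, was at 11.5, 11.8 and 15.0 FPKM on day 10, against 22.8, 18.8 and 21.1 FPKM on day 14, with no overlap and a log2 difference of 0.71 (SE 0.17). Nrp2 was at 70.3, 79.5 and 44.5 FPKM on day 10, against 36.1, 59.2 and 16.3 FPKM on day 14, with overlap and a log2 difference of -0.94 (SE 0.43). No test of the difference between the neuropilins was run. Among the angiopoietins, also named after their values were seen, the log2 difference was 0.64 for Angpt1 and 0.19 for Angpt2.

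Other cell types that a sort could hold were followed by lists of marker genes. The sum of the 10 endothelial genes was 13.9, 22.7 and 19.1 FPKM on day 10 and 44.8, 26.7 and 25.0 FPKM on day 14, and without Eng it was 2.2, 4.5 and 5 FPKM against 22.9, 6.54 and 9.83 FPKM. The haematopoietic and myeloid sum did not order the samples in the same way, being lowest in day 14 replicate 2 and highest in day 14 replicate 3. All 7 of its genes were lowest in day 14 replicate 2, where Emr1 was listed at 0, and 5 of 7 were highest in replicate 3. Ptprc, which encodes the CD45 used in the gate, was at 0.259 to 0.721 FPKM on day 10, against 0.134 to 2.99 FPKM on day 14.

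Megakaryocytes and platelets share Vwf and Esam with endothelium. The sum of 6 of their markers was 7.03 to 14.1 FPKM on day 10 and 4.55 to 17.7 FPKM on day 14. Pf4 was listed at 0 in day 14 replicate 2, Ppbp in day 14 replicate 3, and Gp9 in 5 of the 6 samples. Markers of mural cells, which wrap vessels, summed to 320 to 679 FPKM on day 10 and 478 to 577 FPKM on day 14, most of it from Acta2. None of the 8 mural genes passed an adjusted p of 0.05 (limma with Benjamini-Hochberg adjustment). Of the 8, 2 were higher on day 14 at an unadjusted p under 0.05 (limma), as were 5.6% of all genes tested. Pdgfrb and Notch3, named after their values were seen, had every day 14 value above every day 10 value (7.59% of all genes did), with log2 differences of 0.88 (SE 0.21) and 1.22 (SE 0.37). The 6 genes of fibroblasts and progenitors summed to 297 to 507 FPKM on day 10 and 393 to 1010 FPKM on day 14, those of 8 chondrocyte genes to 373 to 780 and 69.8 to 970 FPKM, and those of 4 erythroid genes to 17.4 to 63.6 and 25.5 to 74.0 FPKM. The chondrocyte sum was 109, 970 and 69.8 FPKM in day 14 replicates 1 to 3. The part of the listed cell types in the endothelial values was not tested.

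**Figure D4:**
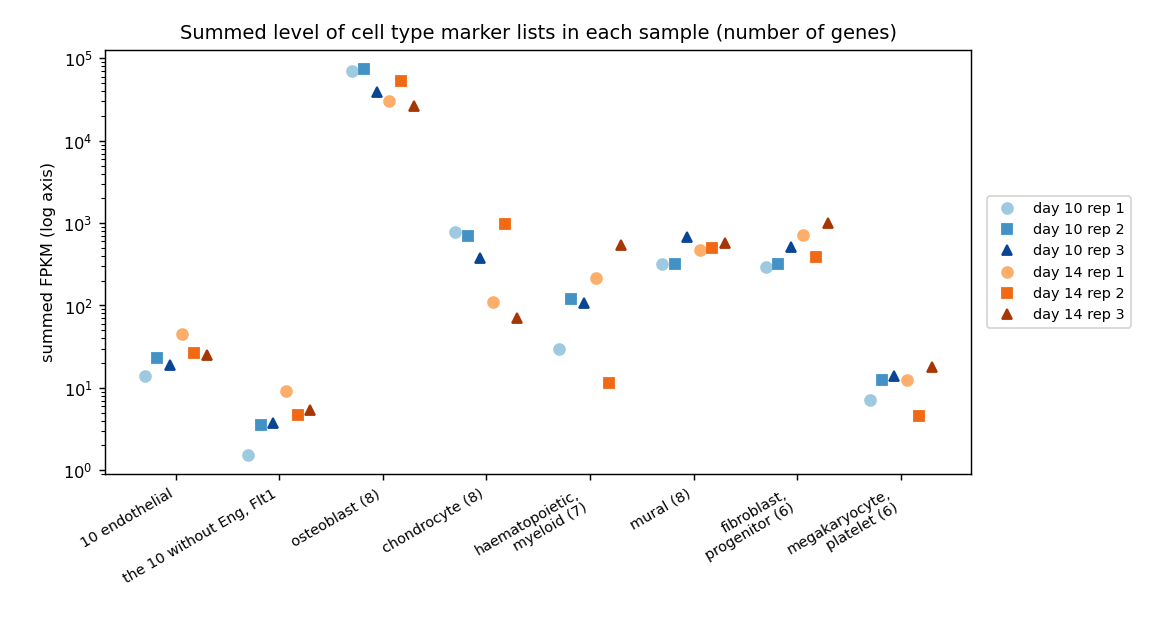
Sum of FPKM over lists of cell-type markers in each sample, on a log axis. The 10 endothelial genes, with and without Eng and Flt1, are drawn beside the OB, chondrocyte, myeloid, mural, fibroblast and platelet lists. The OB sum is at least 26300 FPKM in every sample, the endothelial sum runs from 13.9 to 44.8 FPKM, and the myeloid sum runs from 11.6 to 539 FPKM.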

How the data were processed

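The authors sorted ECFP+ OBs, amplified cDNA with a SMART-Seq low-input kit that does not mark strand, sequenced 75-base single-end reads, aligned them to mm10 (TopHat2 2.0.13, Bowtie2 2.2.3) and computed the deposited FPKM values with Cufflinks 2.2.1. The gene annotation and the handling of reads with several matches are not given in the sources used here. The members and lists were chosen with earlier results of these data known. In 1 file, 25 gene symbols that a spreadsheet had turned into dates were restored. Of 108 genes in all lists, 2 were not matched. Day 14 was compared with day 10 by limma 3.58.1 in R 4.3.3 on log2(FPKM + 0.1) over genes with a mean above 0.1 FPKM, with day as the only factor and Benjamini-Hochberg adjustment. Such fold changes understate changes of low genes. Depth was estimated from 1977 genes with 1 transcript in GENCODE vM21. In each sample, 74.9% to 79.3% of low values lay within 0.1 of a whole read. Genes outside the 10 were named from the lists as the 3 highest by mean and the 3 with the largest difference in each direction among means of at least 1 FPKM. Alternatives changed the pseudocount, filter, scaling, replicate block or left out a sample.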

Additional observations from a re-analysis of the deposited data

How the results depend on the processing

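No gene of the 10, of the wider endothelial list or of the ligands and co-receptors passed an adjusted p of 0.05 (limma with Benjamini-Hochberg adjustment) under any of the 14 alternatives. Leaving out 1 sample at a time gave 3 to 76 genes called among all genes, against 3 with all samples, and the 76 were reached without day 14 replicate 2 (6 without day 10 replicate 3 or day 14 replicate 1). In those fits the median log2 difference of the 10 genes was 0.60 to 1.12. It was 0.41 with a pseudocount of 1 FPKM and 1.06 with 0.01 FPKM. The difference changed sign for Cdh5 (-0.04), Kdr (-0.26) and Vwf (-0.26) without day 14 replicate 1 and for Kdr (-0.05) without day 10 replicate 1, and the cause was not tested. Over the fits with 1 sample left out, it ran from -0.04 to 1.04 for Cdh5, -0.26 to 0.47 for Kdr and -0.26 to 0.76 for Vwf. With a mean above 1 FPKM required, only 4 of the 10 genes were left, so no median over the 10 was given.

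Same-numbered samples of the 2 days had correlations of their deviations from the group means of 0.058, -0.006 and 0.089. Differently numbered samples had -0.098 to 0.02. With 3 samples per day, these values cannot decide whether same-numbered samples shared a sort or a batch. Adding a replicate block to the model called 2 genes in place of 3 and gave the 10 genes a median of 0.93.

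Depth limits most of the endothelial values, because 45 of 60 rest on fewer than 30 estimated reads.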
